A study of Rattus norvegicus with 50 samples.

Results

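The liver's fatty acid oxidation and ketogenesis genes were followed as a group. With earlier results of these data known, 37 gene symbols were chosen by name for their role in this pathway, with no threshold on their values. Of these, 35 were measured, among 14506 genes on the array that had a probe of their own. Acaa1a, the peroxisomal thiolase, and Decr2, the peroxisomal dienoyl-CoA reductase, lay only on probes shared with other symbols and were not analysed here. Each gene was read by its brightest probe, and all values are log2 RMA values (robust multi-array averaging, which corrects background, equalises the arrays and summarises each probe set), so that a difference of 1 is a 2-fold difference.

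The livers came from male Sprague Dawley rats about 3 months old, 1 array per animal, in 10 groups of 5. Intact sham animals formed 1 group, which served as the control for every time. In the other 9 groups the brain was injured by controlled cortical impact, in which a piston bruises the exposed cortex. The injured animals received saline vehicle, erythropoietin (EPO, the growth factor of red cell precursors) at 2500 IU/kg, or anakinra, which blocks the receptor for interleukin-1, at 100 mg/kg, and livers were collected 24 h, 72 h or 7 days after injury. The tissue was punches of the median liver lobe. The sources used here do not give the dosing schedule, the feeding state, the hour of collection or when shams were taken. Groups of 24 h, 72 h and 7 days could differ in any of these, which cannot be told apart from time after injury.

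Fatty acids reaching the hepatocyte are bound by carrier proteins, activated to acyl-CoA esters and either stored in lipid droplets or burned. Long chains enter mitochondria through the carnitine shuttle, whose first enzyme, Cpt1a, is the main control point, and are then shortened by a repeating spiral of dehydrogenation, hydration, oxidation and thiolysis. Peroxisomes and microsomes take up chains that mitochondria handle poorly, and the acetyl-CoA formed in a fasting liver is turned into ketone bodies. Many of these genes are targets of PPAR-alpha, the nuclear receptor that answers to fatty acids and fasting.

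The arrays were of similar scale, with medians from 6.66 to 6.89. In 5 of them the standard deviation over all probes was more than 3 median absolute deviations below that of the median array, and these are called narrow arrays. They were vehicle liver 3 at 24 h, vehicle livers 2 and 5 at 72 h, and vehicle liver 3 and EPO liver 3 at 7 days. In vehicle liver 3 at 24 h, 16 of the 35 genes were the lowest of its group, and in vehicle livers 5 at 72 h and 3 at 7 days 18 and 19 were. Values without the narrow arrays are given where they end a call or move a named difference by over 1.5 times. The 8 hepatocyte markers, with albumin and transthyretin among them, had a mean level between 12.82 and 12.97 in every group. It was lowest with EPO at 7 days and highest in sham. The erythroid markers stood at 9.50 in the EPO group at 72 h and 9.06 in the EPO group at 7 days, against 6.73 to 7.26 in the other 8 groups. In these bulk samples, fewer cells of a type and less RNA per cell cannot be told apart.

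**Figure D1:**
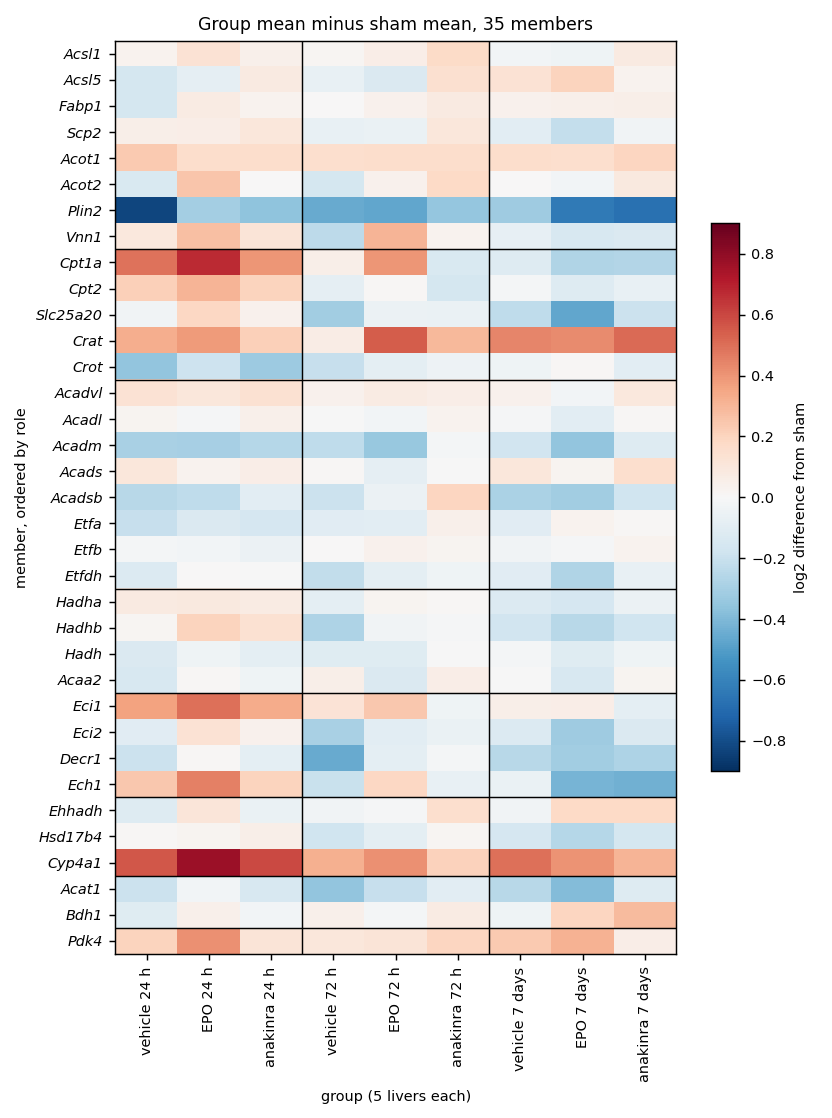
Difference of each group mean from the sham mean (log2, colour) for the 35 genes in rows, ordered by role, and the 9 injured groups in columns, 5 livers each. Plin2 is the blue row, deepest in vehicle at 24 h (-0.83), Cyp4a1 is above sham in all 9 groups, and Cpt1a and Ech1 pass from above sham at 24 h to below it at 7 days.

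At the median, the 35 genes varied more between groups than all genes did. The range of the 10 group means had a median of 0.37 over the 35 genes, against 0.27 over all genes. It exceeded 0.5 for 9 genes and stayed under 0.3 for 13. It was widest for Cpt1a, at 0.94, and narrowest for Etfb, a subunit of the flavoprotein that takes electrons from the acyl-CoA dehydrogenases, at 0.087. A 24 h group held the highest mean for 17 genes and the lowest for 10. A 7 day group held the highest for 5 and the lowest for 15, which was EPO at 7 days for 13 of them. The same counts were not made over all genes. Acot1, a cytosolic acyl-CoA thioesterase, read only 3.28 to 3.51 in the group means, and it was the 1 gene of the 35 below the median of all genes.

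In an F test of any difference among the 10 groups (limma, Benjamini-Hochberg adjustment over all genes, passed at an adjusted p under 0.05), 3 of the 35 genes passed, beside 823 genes in all (5.67%). These were Cpt1a (adjusted p = 0.00933), Ech1, a mitochondrial and peroxisomal isomerase for unsaturated chains (0.0188), and Hsd17b4, the peroxisomal bifunctional enzyme (0.0200). Next in order, and not passed, stood Ehhadh, the second peroxisomal bifunctional enzyme (0.0719), and Cpt2, the inner carnitine palmitoyltransferase (0.0959).

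**Figure D2:**
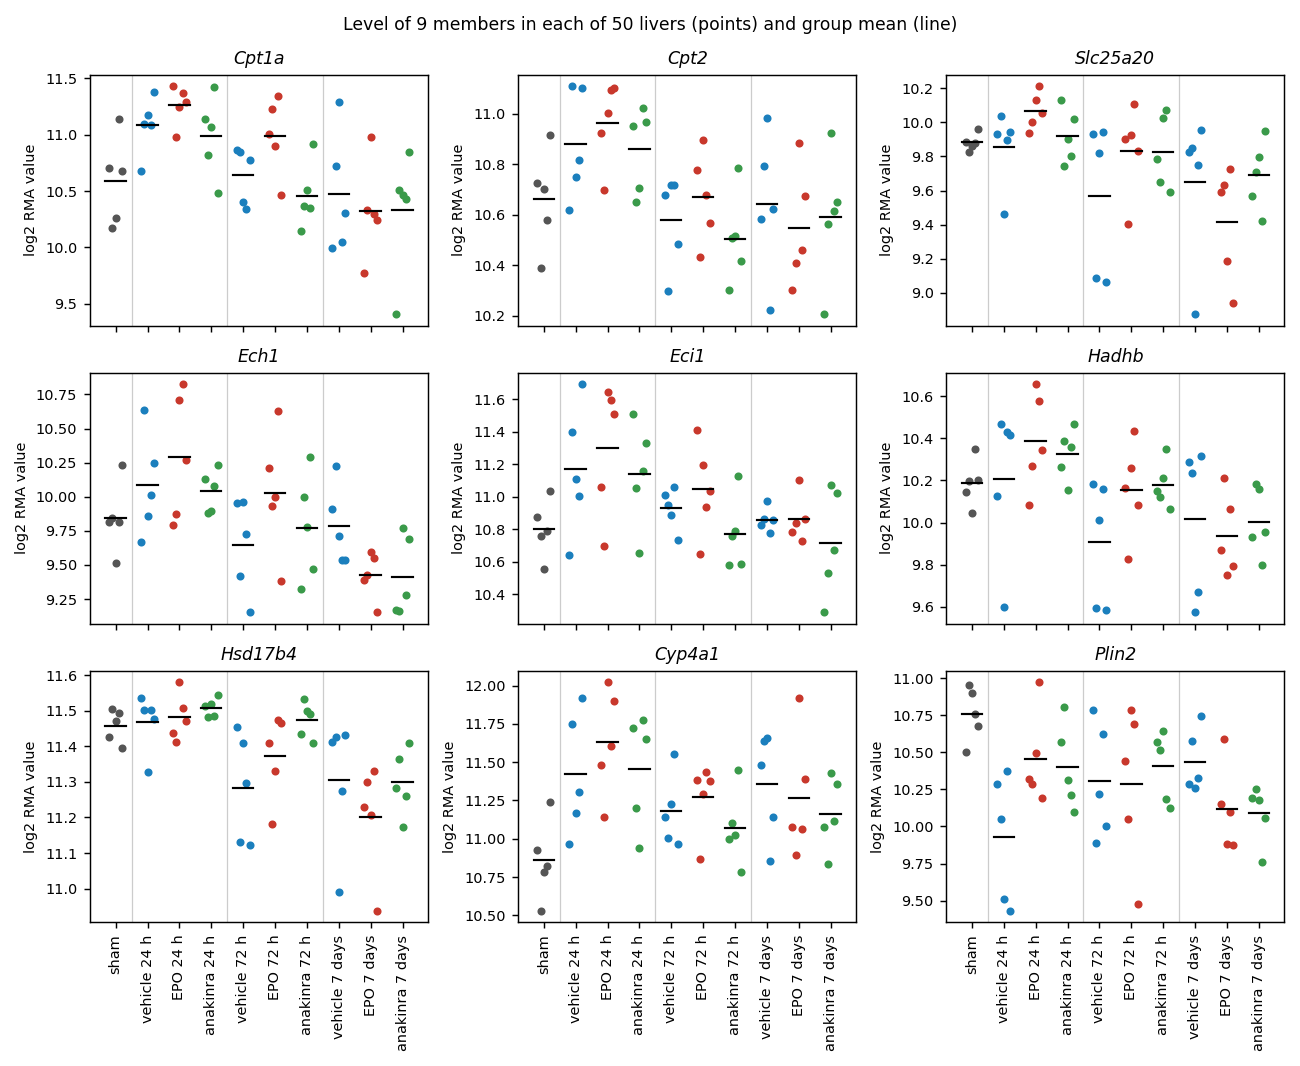
Level (log2 RMA value) of 9 genes in each of the 50 livers (points) by group, with the group mean as a line and grey lines between the times. The Cpt1a group means lie between 10.99 and 11.26 at 24 h, 10.46 and 10.99 at 72 h and 10.32 and 10.47 at 7 days, and Plin2 in all 5 vehicle livers at 24 h lies below every sham liver.

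Start-site sequences were read to see whether genes that moved together carry a common element near the start. RefSeq windows of 300 bases (build GRCr8, 250 bases before to 50 after the annotated start) were held for 29 of the 35 genes. PPAR-alpha and RXR bind a direct repeat of the half-site AGGTCA with 1 base between (called DR1), which was searched on both strands. With at most 1 mismatch it was found in 2 of the 29 windows (6.9%), those of Fabp1 and Acadvl, against 0.439% of all 33469 windows. With at most 2 mismatches it was found in 5 (17.2%), adding Slc25a20, Crat and Etfa, against 3.77% of all. The exact half-site stood in 6 of the 29 (20.7%) and in 16.2% of all windows. These are matches of letters, and no binding was measured. The whole set of windows was not limited to genes measured on the array, unlike the 29. Of the 7 genes that were lower at 7 days than at 24 h, as given below, Ech1 had no window. Among the rest only Slc25a20 held the repeat, and Eci1, Hadhb and Hsd17b4 held the exact half-site. Fabp1 and Acadvl, the closest matches, did not pass in that comparison.

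The windows of both closest matches and that of Slc25a20, the only gene of the 5 that passed in the comparison of 7 days with 24 h given below, are printed with the repeat in capitals. The Hadha window is printed because both subunits of the trifunctional protein share it: Hadha and Hadhb are read in opposite directions from neighbouring starts, and the capitals mark the 200 bases that lie in both windows. The repeat lies from base -77 to -65 in Fabp1, on the strand opposite to the gene, from -17 to -5 in Acadvl, and from 15 to 27 in Slc25a20, counted from the start. The windows are Fabp1 at chr4:104749090-104749389 on the plus strand, Acadvl at chr10:55236656-55236955 on the minus strand, Slc25a20 at chr8:118243323-118243622 on the plus strand and Hadha at chr6:31907551-31907850 on the plus strand.
Fabp1: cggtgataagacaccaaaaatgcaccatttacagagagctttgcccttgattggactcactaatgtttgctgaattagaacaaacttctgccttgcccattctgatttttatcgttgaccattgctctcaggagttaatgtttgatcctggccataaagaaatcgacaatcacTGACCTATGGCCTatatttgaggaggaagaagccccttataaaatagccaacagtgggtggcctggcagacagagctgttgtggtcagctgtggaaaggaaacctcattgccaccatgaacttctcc
Acadvl: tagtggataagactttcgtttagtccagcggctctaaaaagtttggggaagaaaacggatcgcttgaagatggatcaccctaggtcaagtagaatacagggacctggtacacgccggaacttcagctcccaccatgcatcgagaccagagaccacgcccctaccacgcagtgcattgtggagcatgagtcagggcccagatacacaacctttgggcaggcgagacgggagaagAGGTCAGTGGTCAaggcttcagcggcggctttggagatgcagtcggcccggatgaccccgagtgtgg
Slc25a20: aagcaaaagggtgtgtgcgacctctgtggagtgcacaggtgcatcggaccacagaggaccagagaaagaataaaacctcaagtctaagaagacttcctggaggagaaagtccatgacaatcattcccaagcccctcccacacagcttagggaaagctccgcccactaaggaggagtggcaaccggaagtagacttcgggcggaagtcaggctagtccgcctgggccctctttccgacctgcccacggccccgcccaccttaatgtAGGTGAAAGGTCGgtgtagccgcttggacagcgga
Hadha: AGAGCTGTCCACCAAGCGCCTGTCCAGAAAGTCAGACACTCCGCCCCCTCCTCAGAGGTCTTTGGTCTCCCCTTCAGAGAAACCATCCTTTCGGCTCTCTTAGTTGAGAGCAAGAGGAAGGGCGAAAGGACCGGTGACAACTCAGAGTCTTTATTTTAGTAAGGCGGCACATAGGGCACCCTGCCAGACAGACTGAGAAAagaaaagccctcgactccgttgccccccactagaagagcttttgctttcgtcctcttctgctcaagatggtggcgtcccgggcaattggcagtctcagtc

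The largest number of genes that passed was between times after injury, with 15 against 15 livers where the comparisons between treatments had 5 against 5. Over the 3 injured arms, with 15 livers at 7 days against 15 at 24 h, 7 of the 35 genes (20%) were lower at 7 days and 0 were higher. Among all genes 5.02% passed, 2.44% lower and 2.58% higher. The median difference of the 35 genes was -0.06, against -0.01 over all genes. At an unadjusted p under 0.05, 16 of the 35 passed (45.7%), against 17.6% of all genes, 11 of them lower and 5 higher.

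Of the carnitine shuttle, 3 of 5 genes fell. Cpt1a, the outer-membrane transferase that gates entry, read 10.48, 11.14 and 11.43 (lowest, median and highest of 15) at 24 h and 9.41, 10.33 and 11.29 at 7 days. Of the 15 livers at 7 days, 10 lay below every liver at 24 h, although the highest of them overlapped the 24 h range. The difference was -0.73 (SE 0.13, limma adjusted p = 0.000229), or 1.66-fold lower. By group the mean was 10.59 ± 0.39 (SD, n = 5) in sham, 11.08 ± 0.26 in vehicle, 11.26 ± 0.17 in EPO and 10.99 ± 0.35 in anakinra at 24 h, and 10.47 ± 0.54, 10.32 ± 0.43 and 10.33 ± 0.54 at 7 days. The 24 h means thus lay above the sham mean and the 7 day means below it, and no single group passed against sham for this gene.

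Cpt2, which returns the chain to coenzyme A inside the mitochondrion, had 10.62, 10.95 and 11.11 at 24 h and 10.21, 10.61 and 10.99 at 7 days. Its difference was -0.31 (SE 0.07, limma adjusted p = 0.00753), and 8 of 15 livers lay below every liver at 24 h. Slc25a20, the carrier that exchanges acylcarnitine for carnitine, had 9.46, 9.94 and 10.21 at 24 h and 8.87, 9.71 and 9.95 at 7 days, a difference of -0.36 (SE 0.10, limma adjusted p = 0.0167). Its lowest value at 24 h and its lowest at 7 days were both in narrow arrays, vehicle liver 3 of each time. The remaining pair of the shuttle went the other way without passing. Crot, the peroxisomal carnitine octanoyltransferase, differed by 0.25 (adjusted p = 0.112), and Crat, the carnitine acetyltransferase, by 0.15 (0.532).

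Of the enzymes that prepare unsaturated chains, 2 of the 4 measured fell. Ech1 read 9.67, 10.08 and 10.83 at 24 h and 9.15, 9.54 and 10.23 at 7 days, with 10 of 15 livers below every liver at 24 h. The difference was -0.60 (SE 0.12, limma adjusted p = 0.000677), or 1.52-fold lower. Eci1, the mitochondrial enoyl-CoA isomerase, read 10.64, 11.16 and 11.69 at 24 h and 10.29, 10.84 and 11.10 at 7 days, a difference of -0.39 (SE 0.09, limma adjusted p = 0.00803). Its ranges overlapped widely, with 2 of 15 livers at 7 days below every liver at 24 h. Eci2, its peroxisomal and mitochondrial relative, differed by -0.21 (adjusted p = 0.0854) and Decr1, the mitochondrial dienoyl-CoA reductase, by -0.19 (0.488).

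In the later steps of the mitochondrial spiral, 1 of 4 genes fell. Hadhb, the thiolase subunit of the trifunctional protein, read 9.60, 10.36 and 10.66 at 24 h and 9.57, 9.95 and 10.32 at 7 days, a difference of -0.32 (SE 0.08, limma adjusted p = 0.0145). The lowest liver at 24 h was the narrow array of the vehicle group, and both ranges share most of their width. Hadha, the partner subunit with hydratase and dehydrogenase activity, read 11.50, 11.82 and 12.002 at 24 h and 11.27, 11.55 and 11.95 at 7 days, and did not pass with -0.19 (SE 0.06, limma adjusted p = 0.0611). A second, dimmer probe of Hadha differed by -0.27 (SE 0.068). Hadha passed with the mean of its probes (-0.23, limma adjusted p = 0.0229), with array weights (0.0192), with dim genes filtered out (0.0377) and on leaving out any 1 of 6 livers (0.0191 at the lowest). Hadh, the short-chain dehydrogenase, and Acaa2, the mitochondrial thiolase, differed by 0.03 and 0.02.

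None of the 8 acyl-CoA dehydrogenase and electron transfer genes passed, and their differences lay between -0.11 and 0.15. Acadm, the medium-chain dehydrogenase, read 11.40, 11.73 and 11.93 at 24 h and 11.30, 11.85 and 12.09 at 7 days, a difference of 0.07 (SE 0.08, limma adjusted p = 0.734). The dehydrogenases for other chain lengths differed by -0.08 (Acadvl), -0.05 (Acadl), 0.03 (Acads) and -0.07 (Acadsb). Among the electron carriers, Etfa differed by 0.15, Etfb by 0.03 and Etfdh by -0.11.

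Of the 3 peroxisomal and microsomal genes measured, Hsd17b4 fell. It read 11.33, 11.50 and 11.58 at 24 h and 10.94, 11.28 and 11.43 at 7 days, with 9 of 15 livers below every liver at 24 h. The difference was small, -0.22 (SE 0.04, limma adjusted p = 0.00101, 1.16-fold lower), and so was the spread at 24 h (SD 0.06, n = 15). Ehhadh, its counterpart, known for the oxidation of dicarboxylic acids, read 11.35, 11.51 and 11.88 at 24 h and 11.43, 11.69 and 11.99 at 7 days, and did not pass with 0.13 (SE 0.05, limma adjusted p = 0.118), although it did with array weights (0.0492) and quantile normalization (0.0435). Cyp4a1, the microsomal omega-hydroxylase, read 10.94, 11.61 and 12.02 at 24 h and 10.84, 11.14 and 11.92 at 7 days, and did not pass with -0.24 (SE 0.11, limma adjusted p = 0.224).

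Neither ketone body gene passed. Acat1, which condenses acetyl-CoA units, read 10.17, 10.62 and 10.81 at 24 h and 9.75, 10.60 and 10.78 at 7 days (-0.13, SE 0.09, limma adjusted p = 0.486). Bdh1, which interconverts acetoacetate and beta-hydroxybutyrate, read 11.15, 11.37 and 11.67 at 24 h and 11.08, 11.51 and 11.96 at 7 days (0.18, SE 0.06, limma adjusted p = 0.0702). Bdh1 passed with array weights (0.0191), with dim genes filtered out (0.0427) and on leaving out any 1 of 5 livers (0.0269 at the lowest). Pdk4, the kinase that shuts pyruvate out of oxidation when fat is burned, read 10.30, 10.82 and 11.35 at 24 h and 10.36, 10.77 and 11.29 at 7 days (-0.04, SE 0.10, limma adjusted p = 0.908).

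None of the 8 genes of activation and cytosolic handling passed, with differences from -0.27 to 0.17. Fabp1, the liver fatty acid binding protein, read 11.63, 12.16 and 12.33 at 24 h and 12.04, 12.21 and 12.32 at 7 days (0.06, SE 0.05, limma adjusted p = 0.561). Plin2, the lipid droplet coat protein, read 9.43, 10.29 and 10.97 at 24 h and 9.76, 10.19 and 10.74 at 7 days (-0.05, SE 0.11, limma adjusted p = 0.902). Its arms disagreed in sign, as given below. The acyl-CoA synthetases Acsl1 and Acsl5 differed by -0.06 and 0.17, the carrier Scp2 by -0.18 (adjusted p = 0.0729), the thioesterases Acot1 and Acot2 by -0.02 each, and the pantetheinase Vnn1 by -0.27 (0.423).

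**Figure D3:**
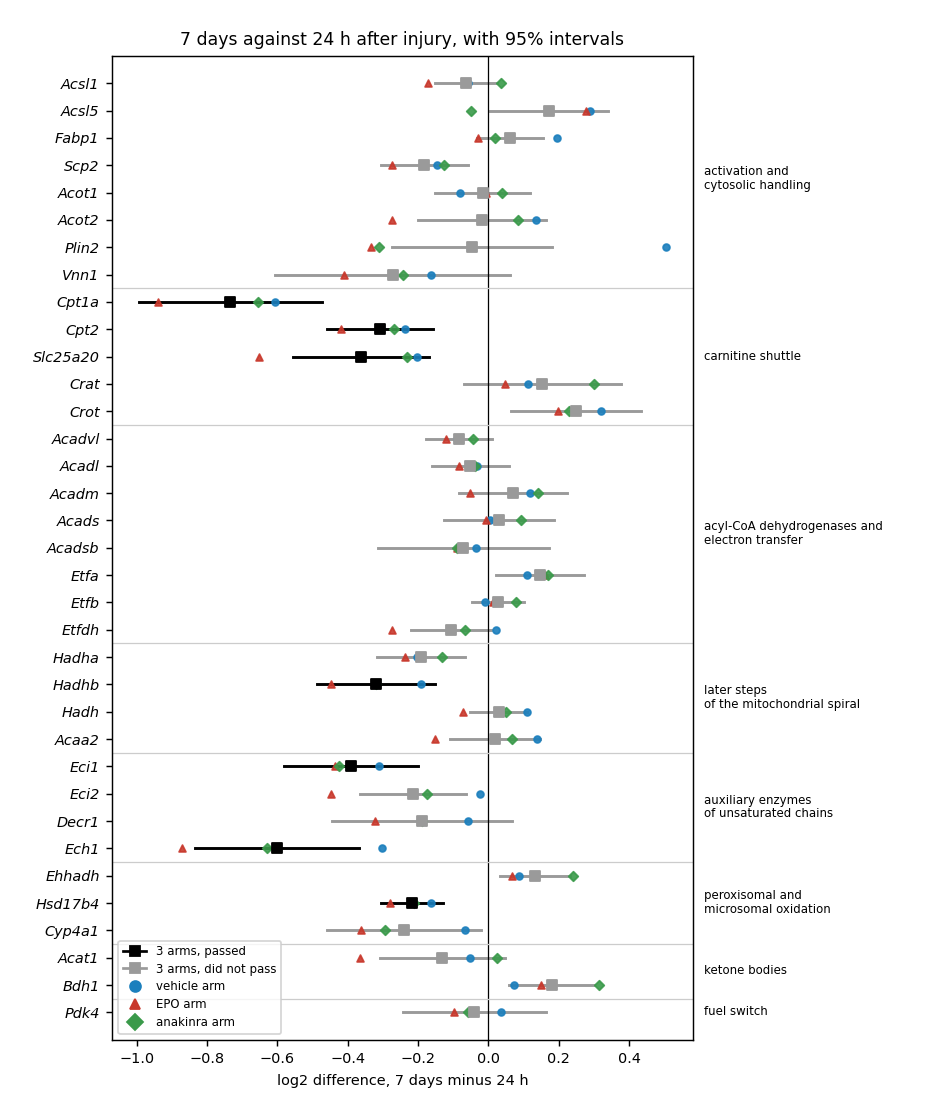
Log2 difference between 7 days and 24 h after injury for the 35 genes, ordered by role. Squares give the 3 arms together with a 95% interval (unadjusted), black where the gene passed and grey where it did not, and coloured points give each arm alone. The 7 genes in black lie left of 0, and the EPO arm gives the lowest of the 3 arm values for each of them.

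The 7 genes were lower at 7 days in each of the 3 arms. Cpt1a differed by -0.61 in the vehicle arm, -0.94 in the EPO arm and -0.66 in the anakinra arm, and Ech1 by -0.30, -0.87 and -0.63. Slc25a20 differed by -0.20, -0.65 and -0.23, and Hsd17b4 by -0.16, -0.28 and -0.21. With 5 against 5 livers, these 4 genes passed in the EPO arm alone, where 206 genes (1.42%) passed. No gene of the 35 passed in the vehicle arm alone (0.248% of all genes) or in the anakinra arm alone (0.0414%). Without the EPO arm, in which erythroid markers were high at 7 days, only Cpt1a passed (-0.63, limma adjusted p = 0.0251). Ech1 then had -0.47 (0.0894), Hsd17b4 -0.19 (0.0641), Eci1 -0.37 (0.110), Cpt2 -0.25 (0.189), Hadhb -0.26 (0.257) and Slc25a20 -0.22 (0.446), and none of these 6 passed in the other 2 arms with their fewer livers. The share of all genes that passed without the EPO arm is not given here. A test of whether the time course differed between arms passed for 0 of the 35 genes, beside 38 genes in all. At an unadjusted p under 0.05 it took 1 of the 35, beside 824 genes in all, so the share of the 35 was not above that of all genes. The 1 gene was Plin2 (limma F test, adjusted p = 0.755). Plin2 differed by 0.51 in the vehicle arm and by -0.33 and -0.31 in the EPO and anakinra arms.

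Over the same 30 livers, 6 of the 8 erythroid markers were higher at 7 days and 0 of the 8 hepatocyte markers passed in either direction, with a median difference of -0.04. Of the 4 pericentral markers 1 was lower, and 0 of the 5 periportal markers passed. The part of the erythroid signal in the fall of the 7 genes was not tested beyond leaving out the EPO arm. Without the 5 narrow arrays 8 of the 35 genes passed, all lower. With array weights 13 passed, 10 lower and 3 higher, the higher ones being Acsl5, Bdh1 and Ehhadh. The shares of all genes that passed under these settings are not given here.

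At 72 h against 24 h, again 15 livers each, 1 of the 35 genes passed, lower at 72 h, beside 1.57% of all genes, with 0.421% lower. Unadjusted p lay under 0.05 for 9 of the 35 (25.7%), all lower, against 10.8% of all genes. Cpt2 read 10.30, 10.57 and 10.90 (lowest, median and highest) at 72 h, against 10.62, 10.95 and 11.11 at 24 h. With 8 of 15 livers below every liver at 24 h, the difference was -0.32 (SE 0.07, limma adjusted p = 0.0131), about as far down as at 7 days. Cpt1a read 10.15, 10.78 and 11.34 at 72 h and did not pass with -0.41 (SE 0.13, limma adjusted p = 0.0970). Cpt1a did pass with array weights and with only the groups compared (limma adjusted p = 0.0193 at the lowest). The call for Cpt2 ended without the EPO arm (-0.33, adjusted p = 0.155) and in each arm alone, where 0.0207% (vehicle), 1.92% (EPO) and 0.0% (anakinra) of all genes passed.

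Against sham, the injured vehicle group at 24 h differed in 1 of the 35 genes, beside 120 genes in all (0.827%, with 0.455% lower). Plin2, whose protein coats the fat droplets of the hepatocyte, read 10.28, 10.05, 9.51, 10.38 and 9.43 in the 5 vehicle livers and 10.50, 10.95, 10.90, 10.76 and 10.68 in the 5 sham livers. All 5 vehicle livers lay below all 5 shams, livers 3 and 5 furthest. The difference was -0.83 (SE 0.20, limma adjusted p = 0.0229), or 1.77-fold lower. The call ended without the narrow arrays, of which vehicle liver 3 is 1 (-0.72, adjusted p = 0.0838), and in a fit of these 10 livers alone (0.0624). It also ended without vehicle liver 3 or 5 or sham 2, 3 or 4, the difference then lying between -0.94 and -0.70 over the livers left out in turn.

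Cyp4a1 was next in order at 24 h and did not pass. The vehicle livers read 10.97, 11.75, 11.17, 11.31 and 11.92 and the shams 10.93, 10.53, 10.79, 10.82 and 11.24, so that 3 of 5 vehicle livers lay above every sham. The difference was 0.56 (SE 0.19, limma adjusted p = 0.154). At 72 h and 7 days after injury, vehicle differed from sham in 0 of the 35 genes and in no gene of the 14506 (0.0%) by the same test. At an unadjusted p under 0.05, 7 of the 35 at 24 h, 6 at 72 h and 3 at 7 days were taken, with 15.9%, 12.1% and 6.52% of all genes.

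At 72 h the 2 genes with the smallest p were Hsd17b4 and Acat1. Hsd17b4 read 11.45, 11.13, 11.41, 11.30 and 11.12 in vehicle and 11.43, 11.51, 11.47, 11.49 and 11.40 in sham (-0.18, SE 0.08, limma adjusted p = 0.398). Acat1 read 10.53, 9.93, 10.55, 10.66 and 10.09 in vehicle and 10.59, 10.76, 10.75, 10.89 and 10.55 in sham (-0.36, SE 0.15, limma adjusted p = 0.400). In both genes the 2 lowest vehicle livers were the narrow arrays 2 and 5, and without the narrow arrays the differences were -0.072 and -0.13, neither past the threshold. At 7 days they were Cyp4a1 and Crat. Cyp4a1 read 11.48, 11.64, 11.66, 10.86 and 11.14 in vehicle, with 3 of 5 above every sham (0.49, SE 0.19, limma adjusted p = 0.757). Crat read 9.55, 9.85, 10.12, 9.21 and 9.61 in vehicle and 9.12, 8.78, 9.05, 9.66 and 9.52 in sham (0.44, SE 0.19, limma adjusted p = 0.757).

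EPO after injury was compared with vehicle at each time, and 0 of the 35 genes passed at any of them. Among all genes 4 passed at 24 h (0.0276%), 395 at 72 h (2.72%) and 53 at 7 days (0.365%). At an unadjusted p under 0.05, 4, 1 and 2 of the 35 were taken, which is 11.4%, 2.86% and 5.71% of them against 10.8%, 20% and 4.97% of all genes. The 95% interval of the difference lay within 0.5 either way for 26 of the 35 genes at 24 h, 26 at 72 h and 29 at 7 days, so larger differences are bounded for those and not for the rest.

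At 24 h Fabp1 read 12.16, 12.11, 12.25, 12.33 and 12.26 with EPO and 11.91, 12.13, 11.63, 12.01 and 12.26 with vehicle (0.23, SE 0.08, limma adjusted p = 0.442). Plin2 read 10.32, 10.29, 10.50, 10.97 and 10.19 with EPO, which is 0.52 above vehicle (SE 0.20, limma adjusted p = 0.442), with 2 of 5 EPO livers above every vehicle liver. The low end of the vehicle group was liver 3, the narrow array, for Fabp1, and livers 3 and 5 for Plin2. Without the narrow arrays Fabp1 differed by 0.14 (limma adjusted p = 0.936). At 72 h Crat read 10.06, 9.74, 9.50, 10.08 and 9.50 with EPO and 9.36, 9.81, 9.18, 9.34 and 8.79 with vehicle (0.48, SE 0.19, limma adjusted p = 0.161). Ech1 read 10.21, 9.93, 9.998, 10.63 and 9.38 with EPO and 9.95, 9.42, 9.96, 9.73 and 9.15 with vehicle (0.39, SE 0.20, limma adjusted p = 0.269). The groups overlap in both. The difference of Ech1 became 0.15 without the narrow arrays (limma adjusted p = 0.892) and 0.13 with array weights (0.840). At 7 days Ehhadh read 11.60, 11.76, 11.69, 11.94 and 11.72 with EPO and 11.69, 11.57, 11.45, 11.43 and 11.55 with vehicle (0.21, SE 0.09, limma adjusted p = 0.857). Bdh1 read 11.24, 11.44, 11.69, 11.54 and 11.92 with EPO and 11.41, 11.32, 11.51, 11.08 and 11.36 with vehicle (0.23, SE 0.10, limma adjusted p = 0.936).

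Anakinra against vehicle likewise gave 0 of the 35 genes at each time, with 0, 0 and 2 genes of the 14506 (0.0%, 0.0% and 0.0138%). At an unadjusted p under 0.05 it took 2, 4 and 2 of the 35, against 4.25%, 10.7% and 7.62% of all genes. At 24 h Plin2 read 10.57, 10.80, 10.31, 10.21 and 10.10 with anakinra, 0.47 above the same vehicle livers (SE 0.20, limma adjusted p = 0.901). Fabp1 read 12.23, 12.24, 12.09, 12.20 and 12.14 with anakinra (0.19, SE 0.08, limma adjusted p = 0.901), inside the vehicle range, and 0.10 without the narrow arrays. At 72 h Hsd17b4 read 11.43, 11.53, 11.50, 11.49 and 11.41 with anakinra (0.19, SE 0.08, limma adjusted p = 0.454). Acot2, the mitochondrial thioesterase, read 9.93, 9.71, 9.98, 9.97 and 9.59 with anakinra and 9.42, 9.46, 9.62, 9.84 and 9.16 with vehicle (0.34, SE 0.16, limma adjusted p = 0.462). Without the narrow arrays Hsd17b4 differed by 0.087 and Acot2 by 0.21, neither past the threshold. At 7 days Bdh1 read 11.36, 11.61, 11.96, 11.68 and 11.69 with anakinra, 4 of 5 above every vehicle liver (0.32, SE 0.10, limma adjusted p = 0.402). Ehhadh read 11.81, 11.54, 11.99, 11.75 and 11.65 with anakinra, 3 of 5 above every vehicle liver (0.21, SE 0.09, limma adjusted p = 0.542). Both drugs were compared with the same vehicle livers, so their differences are not independent of each other.

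**Figure D4:**
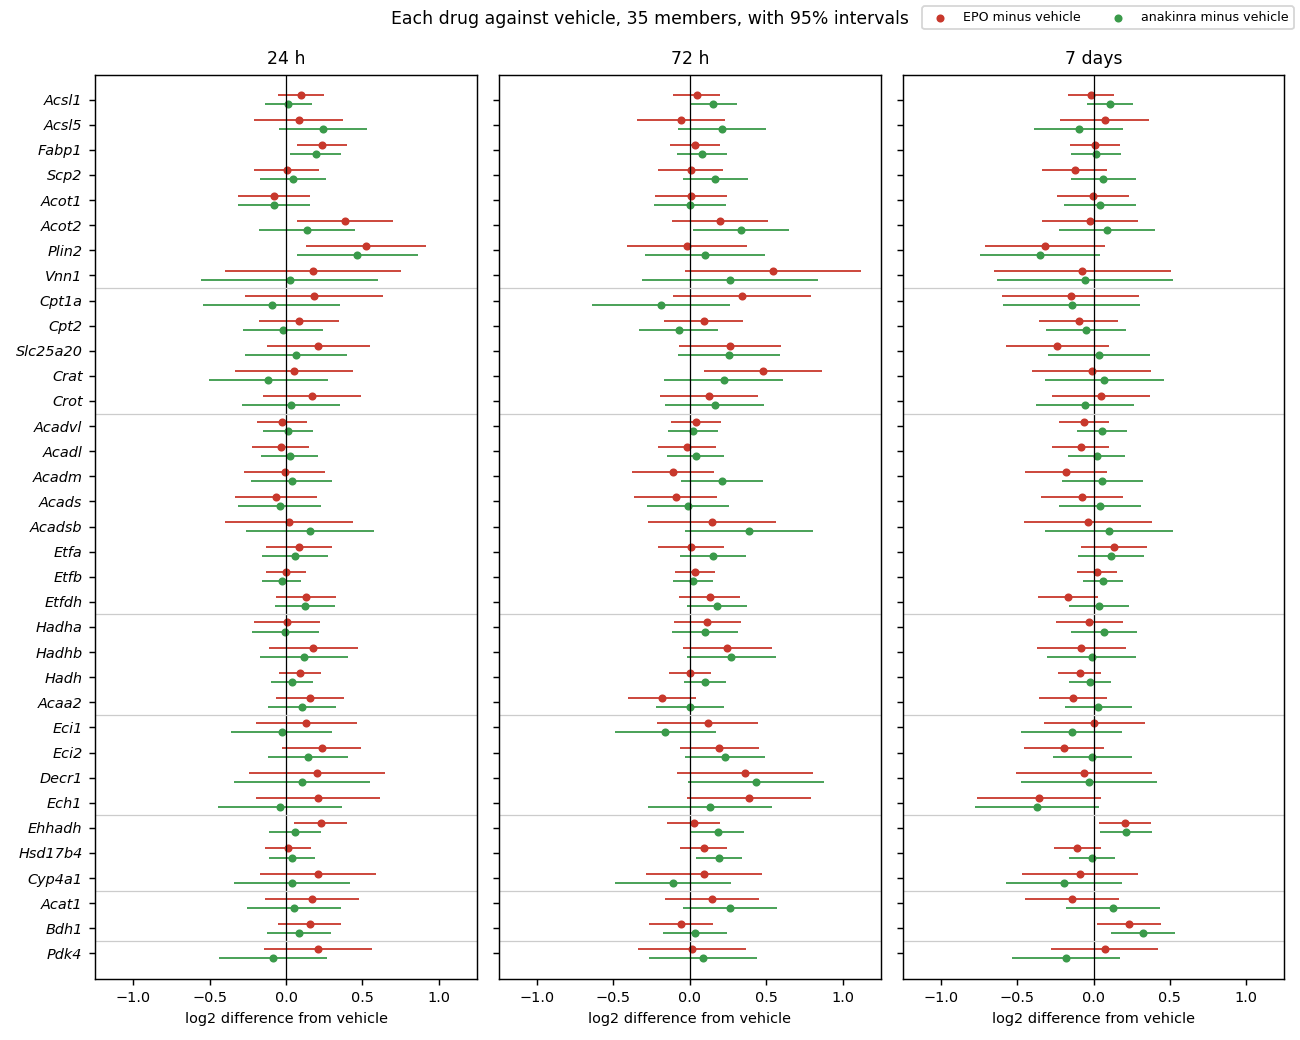
Log2 difference of EPO (red) and anakinra (green) from vehicle for the 35 genes at 24 h, 72 h and 7 days, 5 livers per group, with 95% intervals (unadjusted). No gene passed after adjustment over all genes, and both drugs share the vehicle livers of their panel.

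Set against sham, each drug group gave at most 1 of the 35 genes. EPO at 24 h was higher in Cyp4a1, beside 0.434% of all genes, with 0.283% higher. It read 11.48, 11.14, 12.02, 11.61 and 11.90, with 4 of 5 above every sham, a difference of 0.77 (SE 0.19, limma adjusted p = 0.0450). EPO at 7 days was lower in Hsd17b4, beside 2.86% of all genes, with 1.63% lower. It read 11.23, 11.30, 11.21, 11.33 and 10.94, all 5 below every sham, a difference of -0.26 (SE 0.08, limma adjusted p = 0.0487). Both calls stood close to the threshold, and leaving out 1 liver at a time ended the first for EPO livers 1, 3, 4 and 5 and shams 1 to 4, and the second for EPO livers 1, 3 and 5 and every sham. EPO at 72 h (3.46% of all genes) and anakinra at 24 h, 72 h and 7 days (0.193%, 0.11% and 1.83%) gave 0. With EPO at 24 h, 72 h and 7 days, 20%, 11.4% and 34.3% of the 35 had an unadjusted p under 0.05. Among all genes 5.99%, 13.6% and 18.3% did. With anakinra the shares were 8.57%, 2.86% and 17.1% of the 35, against 6.28%, 5.78% and 14.1% of all genes. Plin2 was the lowest of the 35 in both drug groups at 7 days without passing, at -0.64 (limma adjusted p = 0.0589) with EPO and -0.67 (0.0570) with anakinra. With EPO at 7 days, 8 of 8 erythroid markers were higher than in sham and 1 of 8 hepatocyte markers was lower. Their part in the call of Hsd17b4 in that group was not tested.

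The wider pathway was read through 78 measured genes of uptake, transport, peroxisomal oxidation, lipid droplets and their regulators, from a list of 96. Against vehicle, 4 of them were higher with EPO at 72 h and 4 at 7 days, and 0 were lower, where 2.18% and 0.331% of all genes passed as higher. Cd36, the fatty acid translocase, was 1.499 higher at 72 h (9.67 ± 0.43 against 8.17 ± 0.50, SD, n = 5, limma adjusted p = 5.7e-06) and 1.14 higher at 7 days (0.00178). Ucp2, a mitochondrial carrier, was 1.52 and 1.30 higher, and Pdk3, a relative of Pdk4, 1.38 and 0.75 higher. Etfbkmt, which methylates the beta subunit of the electron transfer flavoprotein, was 0.74 and 0.55 higher. These are the groups in which the erythroid markers were high, and the Kupffer cell markers (mean level 9.50, against 8.73 to 9.17 elsewhere), the neutrophil markers (6.54 against 5.55 to 5.89) and the endothelial markers (9.39 against 9.06 to 9.23) were highest at 72 h with EPO. Of the markers measured, 8 of 8 erythroid, 7 of 7 Kupffer cell, 4 of 7 neutrophil and 2 of 5 endothelial markers passed as higher there, and at 7 days 7 of 8 erythroid markers. Their part in these 4 genes was not tested.

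Against sham, the vehicle group at 24 h was higher in 1 of the 78, Slc27a5, the bile acid and very long chain acyl-CoA synthetase (0.59, limma adjusted p = 0.0425), where 0.372% of all genes passed as higher. Without the narrow arrays it did not pass (0.55, 0.133). At 7 days against 24 h, 6 of the 78 were higher and 11 lower, where 2.58% and 2.44% of all genes were. Without the EPO arm 4 of the 78 passed, with Ppard higher and Cidec, Slc25a42 and Tysnd1, a peroxisomal protease, lower. The share of all genes in that comparison is not given here. Slc25a42, the mitochondrial coenzyme A carrier, was 9.04 ± 0.14 (SD, n = 15) at 24 h and 8.68 ± 0.14 at 7 days, with 10 of 15 below every liver at 24 h. Cidec, which fuses lipid droplets, fell by 0.48 on the log2 scale, and Pex11a, which divides peroxisomes, by 0.33. At 72 h against 24 h, 3 were higher (Pdk3 by 0.63, Ucp2 by 0.71 and Cd36 by 0.45) and 3 lower (Pex11a by -0.34, Slc25a42 by -0.22 and Acot12 by -0.24), where 1.15% and 0.421% of all genes were. The 3 higher genes are among the 4 that were higher with EPO than with vehicle at 72 h. In the EPO arm alone they differed by 1.40 (Pdk3), 1.58 (Ucp2) and 1.26 (Cd36), and without the EPO arm by 0.24, 0.28 and 0.043. None of the 6 passed without the EPO arm. In the comparison of 72 h with 24 h, 8 of 8 erythroid, 2 of 7 Kupffer cell and 2 of 7 neutrophil markers were also higher and 1 of 4 pericentral markers lower, and their part in these 6 genes was not tested further. Of the regulators, Rxra, the partner of PPAR-alpha, was lower at 7 days than at 24 h (-0.20, limma adjusted p = 0.0079) and Ppard, the delta receptor, was higher (0.51, 0.0048), and these 2 and Tysnd1 are named after their values were seen. Ppara itself differed by -0.05 (adjusted p = 0.883) between 7 days and 24 h, its coactivator Ppargc1a by 0.16 (0.474) and its secreted target Fgf21 by -0.01 (0.970), and none of the 3 passed in the comparisons with vehicle or of vehicle with sham.

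Within groups, many of the 35 genes varied together from liver to liver. Over the 50 arrays, as deviations from the group means, the 595 pairs had a median Pearson's r of 0.27, against -0.0016 over pairs of the other 14471 genes. The share of pairs above 0.5 was 20.8% among the 35 and 8.29% among the others. Apart from Acot1, the 35 genes were bright, at percentile 82.6 of mean level or higher, and pairs of other genes as bright were not compared. With p from 100000 permutations of arrays within groups, adjusted over the 595 pairs, 230 pairs had an adjusted p under 0.05. Pairs of other genes were not put through this permutation test, so no matching share is given. The closest pair was Slc25a20 and Eci2 (r = 0.94, Spearman's rho = 0.92, permutation p = 1e-05 for each, the smallest they can give, adjusted 0.000157 and 0.00018). Then came Acadl with Hadha (r = 0.88, rho = 0.90), Etfdh with Hadhb (0.87 and 0.82), Hadhb with Decr1 (0.86 and 0.81) and Acadm with Acadsb (0.85 and 0.84), all at the same p. Leaving out the 2 livers farthest from the median of the first gene moved these 5 to between 0.81 and 0.93. Without the 5 narrow arrays they lay between 0.77 and 0.92.

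Hadha and Hadhb, whose start windows overlap, stood at rank 29 of the 595 pairs (r = 0.73, rho = 0.78, permutation p = 1e-05). Cpt1a stood outside the block of closely tied mitochondrial genes. Its lowest correlation was with Acsl5 (r = -0.54, rho = -0.41, permutation p = 0.00097 and 0.00735, adjusted 0.00458 and 0.0228), which became -0.43 without the 2 farthest livers. The other pairs at the low end were Acads with Etfa (r = -0.51, rho = -0.26), Acads with Pdk4 (-0.48 and -0.49), Acsl5 with Vnn1 (-0.42 and -0.37) and Acot1 with Eci2 (-0.42 and -0.39). The last became -0.15 without the narrow arrays, and for Acads with Etfa the rank correlation had an adjusted permutation p of 0.177.

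**Figure D5:**
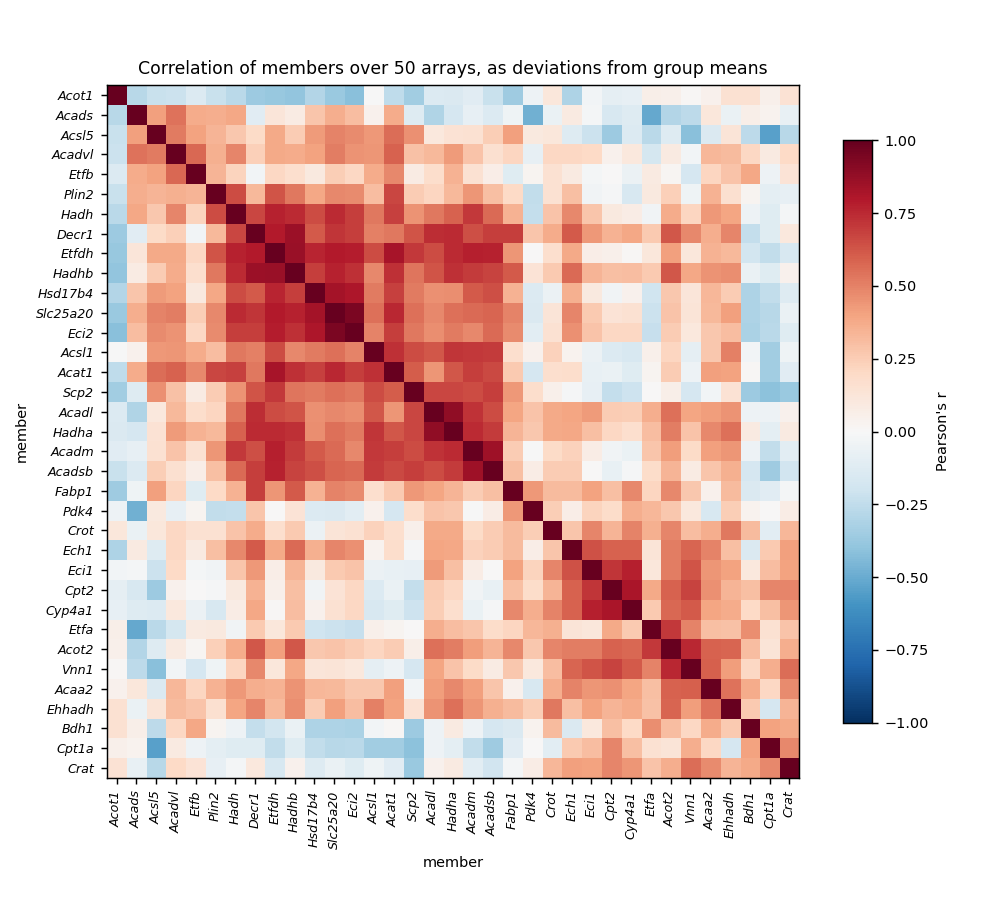
Pearson's r between the 35 genes over 50 arrays, as deviations from the group means, ordered so that similar genes are adjacent. The red block from Hadh to Acadsb holds mostly mitochondrial and peroxisomal enzymes of oxidation, a smaller one holds Ech1, Eci1, Cpt2 and Cyp4a1, and Cpt1a lies apart from the first block.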

How the data were processed

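Affymetrix Rat Gene 1.0 ST arrays carried liver RNA of 50 rats, 5 in each of 10 groups. The authors deposited log2 values made with RMA in the oligo package, per the submitters' processing notes; versions and the genome build are not given there. Scanner values and detection calls were not used here, and the number of arrays limits the precision. Of 29214 probes, 15310 carried 1 gene symbol, 323 several and 13581 none; the highest-mean single-symbol probe was kept for each of 14506 genes. limma 3.58.1 (R 4.3.3) was fitted with 1 mean per group over all 50 arrays (40 residual degrees of freedom), without a replicate block. P-values are two-sided and adjusted by Benjamini-Hochberg over all genes within each of 17 comparisons and the F test. Intervals are at 95% and unadjusted. Group was taken from the labels. The fit was tested on simulated data, whose noise was independent between genes and of equal spread over the arrays, unlike the data here. The members and lists were chosen with earlier results of these data known. Genes given liver by liver were those that passed, up to 6 per comparison, otherwise the 2 with the smallest p, plus 10 named whatever they showed; Slc25a20 in the time comparison was added after its values were seen. The replicate numbers did not pair the samples: deviations of same-numbered samples had a mean correlation of 0.013 (-0.58 to 0.72). Alternatives were the replicate block, array weights, trend and robust eBayes, only the groups compared, no narrow arrays, quantile normalization, the mean of a gene's probes, a filter on dim genes and leaving out each liver. After the data were seen, fits without the EPO arm and of each arm alone were added. Protein comparisons were not made here.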

Additional observations from a re-analysis of the deposited data

Results flagged for a closer look

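In 170 sets of 5 livers (17 genes given liver by liver, 10 groups), 8 had a lowest liver set apart from the others by more than Dixon's 95% criterion, and chance flags about 1 in 20 such sets. None had a highest liver set apart. Cpt1a was 9.41 in anakinra liver 1 at 7 days, against 10.43 in the next lowest. Crat was 8.90 in anakinra liver 2 at 24 h (next 9.52) and 9.23 in EPO liver 1 at 7 days (next 9.67). Hsd17b4 was 11.33 in vehicle liver 3 at 24 h (next 11.48), which is a narrow array. At 72 h with EPO, Pdk4 was 10.06 in liver 4 (next 10.75) and Cyp4a1 10.87 in liver 2 (next 11.29). Acat1 was 10.23 in anakinra liver 4 at 7 days (next 10.60), and Acot2 was 9.52 in sham 1 (next 9.66).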

How the results depend on the processing

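Over 18 counts of the 35 genes and 411 alternatives, 355 counts stayed within 1.5 times the main count; of 1038 alternatives for single genes, 979 kept direction and side of the threshold, 31 lost and 21 gained a call, and 7 reversed. For 7 days against 24 h the count of 7 became 13 with array weights, 1 in the vehicle and anakinra arms, and 0, 4 and 0 in the vehicle, EPO and anakinra arms alone; leaving out 1 liver gave 7 to 10. For 72 h against 24 h the count of 1 became 6 with array weights, 2 with only the groups compared and 0 without the EPO arm or in any arm alone (1 to 2 leaving out 1 liver). In the F test 3 became 11 with array weights and 5 without narrow arrays (3 to 5 leaving out 1 liver). For vehicle against sham at 24 h the count of 1 became 2 with array weights and 0 without narrow arrays or with only the groups compared (0 to 1 leaving out 1 liver). For EPO against sham at 24 h 1 became 4 with array weights and 0 with quantile normalization (0 to 1), and at 72 h 0 became 1 with array weights. At 7 days 1 became 4 with array weights and 2 without narrow arrays, with dim genes filtered or with only the groups compared (0 to 2). For anakinra against sham, array weights gave 1 at 24 h, 1 at 72 h and 3 at 7 days, each from 0, and at 7 days the replicate block, no narrow arrays, quantile normalization, the dim filter and only the groups compared gave 1 each, which was Plin2. The block changed the count in no other comparison, although over all of them 1 call of a gene was lost and 2 were gained. Reversed values of 7 days against 24 h were of genes that had not passed. They were Plin2 at 0.10 without the EPO arm and 0.51 in the vehicle arm, Pdk4 at 0.037 in the vehicle arm and from -0.084 to 0.0061 leaving out 1 liver, Acadm at -0.051 and Fabp1 at -0.029 in the EPO arm, and Acat1 at 0.026 in the anakinra arm. The cause of these changes was not tested. Apart from the single arms above, shares of all genes under the alternatives are not set beside the counts. The dim filter left 34 of the 35 genes. Arrays without counts give no depth, and values near background, as for Acot1, hold little information.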
